A study of Mus musculus with 5 samples.

Results

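The imprinted genes examined here were 38 autosomal genes in 16 imprinted domains, together with the Smarca4 peaks around them. A peak was selected when it overlapped the body of a listed gene or the 10 kb on either side of it, in the GENCODE vM21 annotation of mm10. By this rule 152 of the 78911 peaks in the 4 deposited lists were chosen, and they formed 136 separate regions when overlapping peaks were joined. Smarca4, also known as Brg1, is a catalytic subunit of the BAF nucleosome remodelling complex, and its binding was measured by ChIP-seq in mouse embryonic stem cells (mESCs) fixed at day 4 of differentiation. The groups were female cells with the Smarcc1.6 hairpin against Smarcc1, a core BAF subunit, female cells with the non-silencing control hairpin (Nons), male Smarcc1.6 cells and male Nons cells. All were of C57/Bl6 strain and, per the study's methods, carried X-linked fluorescent reporter alleles at Hprt. The genes were listed with earlier results of these data known, and a peak was called on the reads of its own library, so the values there are a description. Each group was 1 library, and 1 input library of chromatin without immunoprecipitation served all 4, so no difference between groups has a replicate check. The labels name the hairpin target in the antibody field, whereas the methods name an antibody to Smarca4 for every ChIP library. As the cells were of 1 inbred strain, reads were not assigned to a parental allele.

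Imprinted genes are expressed mainly from 1 parental copy, and they lie in clusters governed by control regions whose DNA methylation is set in the egg or the sperm. At most of these control regions the maternal copy is methylated, and the unmethylated paternal copy acts as the promoter of a protein-coding gene or of a long non-coding RNA that silences its neighbours in cis, as Kcnq1ot1 and Airn do. The zinc finger protein Zfp57 binds methylated TGCCGC at control regions and preserves their methylation in mESCs, whereas Ctcf binds the unmethylated maternal copy of the H19 control region and insulates Igf2. Of the 38 genes, 22 are known as paternally expressed and 16 as maternally expressed. DNA methylation and expression were not measured by this assay.

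The peak regions over several imprinted promoters carried the Zfp57 hexamer in clusters, and these are printed because, of the motifs searched, this one set the imprinted peaks apart most from other peaks. TGCCGC was searched on both strands, overlapping matches included, and the sequences below are the forward strand of mm10 with matches in capitals, at most 300 bases of a peak and without bases annotated as UTR. The Peg3 stretch (chr7:6729419-6729718) lies in an intron of Peg3 near its start site and holds 3 of the 4 matches of its peak. The Nespas stretch (chr2:174295801-174295995) holds 3 of 5 matches, 2 of which overlap. The Airn stretch lies in an intron of Airn, and the peaks that hold the Nnat and Ascl2 stretches overlap coding exons, each near a start site. The Airn (chr17:12742351-12742650), Nnat (chr2:157560301-157560600) and Ascl2 (chr7:142968151-142968450) stretches hold 3 matches each.
Peg3: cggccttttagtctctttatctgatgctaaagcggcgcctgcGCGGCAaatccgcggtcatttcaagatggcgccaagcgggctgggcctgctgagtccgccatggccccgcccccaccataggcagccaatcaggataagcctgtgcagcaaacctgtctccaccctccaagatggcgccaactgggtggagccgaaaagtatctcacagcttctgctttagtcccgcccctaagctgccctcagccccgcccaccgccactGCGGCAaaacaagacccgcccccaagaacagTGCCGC
Nespas: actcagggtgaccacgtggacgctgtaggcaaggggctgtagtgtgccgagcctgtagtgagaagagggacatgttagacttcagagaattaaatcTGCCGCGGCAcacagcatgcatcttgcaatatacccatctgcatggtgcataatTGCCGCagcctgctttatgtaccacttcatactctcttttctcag
Airn: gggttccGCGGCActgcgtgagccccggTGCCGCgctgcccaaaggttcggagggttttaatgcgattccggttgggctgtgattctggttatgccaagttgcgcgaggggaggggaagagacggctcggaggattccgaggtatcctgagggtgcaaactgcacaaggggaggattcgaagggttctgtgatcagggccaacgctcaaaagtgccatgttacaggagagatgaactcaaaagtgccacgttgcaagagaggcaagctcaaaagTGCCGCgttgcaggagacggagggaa
Nnat: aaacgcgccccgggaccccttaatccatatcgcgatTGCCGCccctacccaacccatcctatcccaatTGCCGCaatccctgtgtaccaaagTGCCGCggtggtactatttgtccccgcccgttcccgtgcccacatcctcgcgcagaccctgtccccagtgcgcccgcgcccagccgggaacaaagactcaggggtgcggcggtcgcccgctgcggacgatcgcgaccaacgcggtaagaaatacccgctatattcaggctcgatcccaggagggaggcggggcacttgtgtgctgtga
Ascl2: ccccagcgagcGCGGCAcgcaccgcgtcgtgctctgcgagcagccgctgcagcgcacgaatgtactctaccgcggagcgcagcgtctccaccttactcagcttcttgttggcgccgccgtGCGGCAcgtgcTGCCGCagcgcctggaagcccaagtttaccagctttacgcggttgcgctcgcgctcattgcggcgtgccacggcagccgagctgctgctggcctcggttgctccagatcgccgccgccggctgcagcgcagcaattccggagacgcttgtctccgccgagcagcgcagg
In all, 8 of the 152 imprinted peaks (5.26%) held 3 or more matches, against 0.103% of all autosomal peaks of the same widths. These 8 were 3 peaks at Peg3, 2 at Nespas and 1 each at Airn, Nnat and Ascl2. All came from the 2 male lists, which hold 31 and 79 of the 152 peaks. The 2 Nespas peaks overlap, as do the Peg3 peaks chr7:6729151-6729750 and chr7:6729301-6729900, so some matches were counted again. All 8 lay within 1 kb of a start site, whereas the 0.103% is over autosomal peaks at any position. They held 4.44 to 14 CpG (C followed by G) per 100 bases, against a median of 1.67 in all autosomal peaks. TGCCGC itself contains a CpG, and the background was matched for width and not for CpG content. The part of CpG content in these shares was not tested. With 1 or more matches counted, the share was 13.8% (21 of 152 peaks) against 8.96% of autosomal peaks of the same widths. Within 1 kb of a start site the share was 19.7% (14 of 71) against 12.7%, and away from start sites it was near the background, at 8.64% (7 of 81) against 7.69%. The threshold of 3 was chosen after the matches had been seen, so the share is given without a test.

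Not every promoter peak carried the hexamer. The peak near the start of Kcnq1ot1 (chr7:143296051-143296350), a promoter known as a control region, held no match and is printed for that contrast. It lies inside the transcript, its centre 349 bases from the start site, so the bases of the start itself are not covered. The female Nons peak at H19 (chr7:142577401-142577700) lies over a non-coding exon inside the gene. This H19 peak held 1 match to GGNGGCAG, from the middle of the Ctcf motif, shown in capitals. The match is not offered as the Ctcf site of the H19 control region.
Kcnq1ot1: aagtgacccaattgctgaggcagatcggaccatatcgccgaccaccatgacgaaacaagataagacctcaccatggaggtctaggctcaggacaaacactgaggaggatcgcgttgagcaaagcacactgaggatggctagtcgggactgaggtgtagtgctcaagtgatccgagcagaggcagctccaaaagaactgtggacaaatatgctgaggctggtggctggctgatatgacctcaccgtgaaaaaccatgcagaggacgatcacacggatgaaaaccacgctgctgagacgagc
H19: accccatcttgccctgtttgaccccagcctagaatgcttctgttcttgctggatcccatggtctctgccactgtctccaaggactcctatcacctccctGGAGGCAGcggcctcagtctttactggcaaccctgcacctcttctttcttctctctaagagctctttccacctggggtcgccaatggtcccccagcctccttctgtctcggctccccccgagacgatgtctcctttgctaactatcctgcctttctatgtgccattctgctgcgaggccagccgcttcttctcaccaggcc
The Ctcf letters occurred in 32 of the 152 peaks (21.1%), against 22.0% of autosomal peaks of the same widths. GCCATNTT, from the Yy1 motif, occurred in 8 peaks (5.26%), against 6.70%. Both shares were near the background, whereas the Zfp57 letters were above it in the male lists, at 16.1% against 8.16% in male Smarcc1.6 and 16.5% against 9.96% in male Nons, and close to it in female Nons, at 7.89% against 7.96%. A match in these windows is a description of letters and does not show that a factor bound.

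Reads were few. Depth, meaning the mapped reads that the scaling of the deposited values implies and not the reads sequenced, was 5.99% of the input's for female Smarcc1.6, 11.6% for female Nons, 14.2% for male Smarcc1.6 and 21.8% for male Nons, and peaks over the imprinted genes held 5 to 8, 6 to 13, 7 to 15 and 4 to 25 reads in those libraries. A deposited value is the number of reads multiplied by a step that scales the library to the input, of 16.7 for female Smarcc1.6, 8.6 for female Nons, 7.03 for male Smarcc1.6 and 4.59 for male Nons. Values below are reads unless they are called scaled. Median reads per peak were 6.5, 8, 8 and 10 in the order above, against 5, 7, 8 and 9 over all autosomal peaks, and the input had at most 24 reads in an imprinted peak. Median GC content was 55.3% in the imprinted peaks and 54.3% in all autosomal peaks. Of 9 marker genes of pluripotent and early differentiating mESCs, Dnmt3b, Esrrb, Otx2, Pou5f1 and Sox2 had a promoter peak in male Nons, Otx2 in male Smarcc1.6 and none in the female lists, which checks the cell type only in part.

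The 38 listed imprinted genes held peaks more often than protein-coding genes in general in the male lists and less often in female Nons. They held them about as often in female Smarcc1.6, which held the fewest. In male Smarcc1.6 the excess was not shared by 39 other imprinted genes, given below. Female Smarcc1.6 had 4 peaks in the windows (exact Poisson 95% interval 1.09 to 10.2), female Nons 38 (26.9 to 52.2), male Smarcc1.6 31 (21.1 to 44.0) and male Nons 79 (62.5 to 98.5). Intervals here and below cover counting error alone and compare libraries. The lists differ in depth and length, and the part of depth in these counts was not tested. In the 2.60 Mb of windows the density of male Nons peaks was 30.4 per Mb (24.1 to 37.9), against 21.2 per Mb in the windows of all autosomal genes and 15.4 per Mb over the autosomes. Female Nons had 14.6 per Mb (10.4 to 20.1) against 11.5 in the windows of all genes, and male Smarcc1.6 11.9 (8.11 to 16.9) against 9.21. In female Smarcc1.6 the values were 1.54 (0.419 to 3.94) and 1.47. The interval lay above the value of all gene windows in male Nons and held that value in the other 3 lists. When the lists were cut to the 2781 peaks with the highest fold over input in each, 4 peaks were left in female Smarcc1.6, 3 in female Nons, 6 in male Smarcc1.6 and 5 in male Nons, and the order of the lists was lost. GC content was 44.1% in the imprinted windows and 41.9% over the autosomes, and its part in the densities was not tested.

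At least 1 peak lay in the window of 33 of the 38 genes, a count over the 4 lists together that was not made for all autosomal genes. Female Smarcc1.6 peaks reached 5 of the 38 (13.2%), against 6.55% of the 51229 autosomal genes. Female Nons peaks reached 16 (42.1%) against 28.6%, male Smarcc1.6 peaks 24 (63.2%) against 26.3%, and male Nons peaks 31 (81.6%) against 39.5%. Imprinted genes are longer than most entries of the annotation, with a median window of 48.6 kb against 23.7 kb, so the shares of protein-coding genes are the closer comparison. Among those, 4 of 31 imprinted genes (12.9%) had a peak in female Smarcc1.6, against 11.1% of all 20807. In female Nons it was 11 (35.5%) against 44.0%, in male Smarcc1.6 18 (58.1%) against 41.5%, and in male Nons 24 (77.4%) against 58.2%. The excess over the background was thus lost in female Nons when genes without a coding sequence were left out, and remained in the male lists. Windows of protein-coding genes, with a median of 37.6 kb, were still shorter than those of the imprinted genes, and the part of length in the excess was not tested. Of the 22 paternally expressed genes 2 had a peak in female Smarcc1.6, 9 in female Nons, 13 in male Smarcc1.6 and 19 in male Nons. Of the 16 maternally expressed genes the numbers were 3, 7, 11 and 12, so that neither class was ahead in every list.

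**Figure D1:**
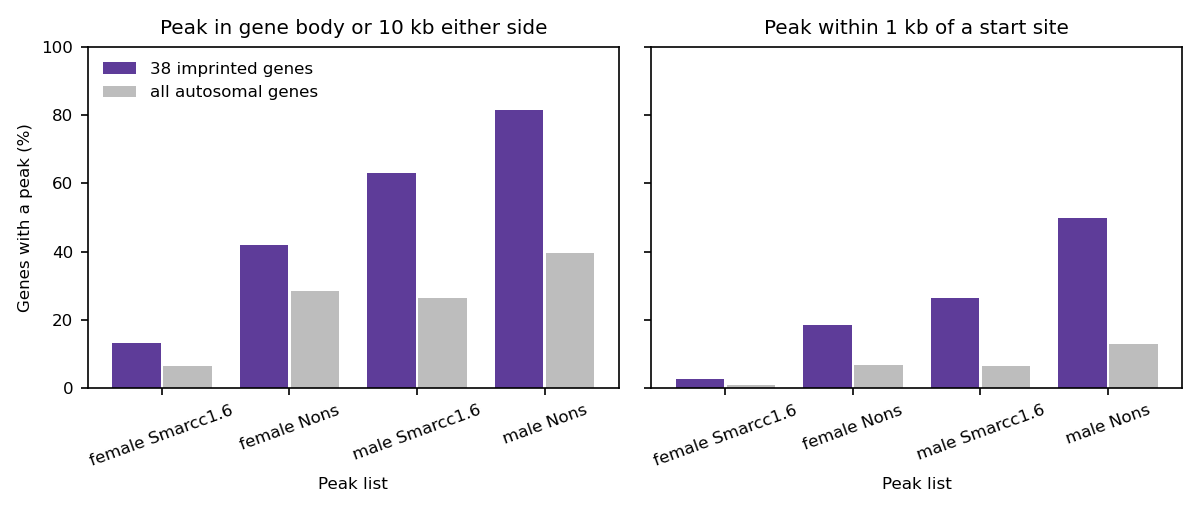
Share of genes with a Smarca4 peak, in percent, for the 38 imprinted genes (purple) and all autosomal genes (grey) in each peak list, by gene body with 10 kb either side (left) and by 1 kb around start sites (right). Imprinted genes lay above the share of all autosomal genes in each list, in percentage points most widely in male Nons, at 81.6% against 39.5% by windows and 50% against 13% at start sites.

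Start sites held a large part of the peaks. A peak was placed at a start site when it lay within 1 kb of a start site of any annotated gene. Genes outside the 38, such as those of miRNAs, were included. By the construction of the windows this is more frequent here than elsewhere. This held for 1 of 4 imprinted peaks in female Smarcc1.6 against 18% of its autosomal peaks, 17 of 38 in female Nons against 17.8%, 12 of 31 in male Smarcc1.6 against 20.6%, and 41 of 79 in male Nons against 21.2%. Peaks at a start site of one of the 38 genes themselves were fewer, at 1, 8, 10 and 29 in the same lists. Counted by gene, 1 imprinted gene had a peak at its own start site in female Smarcc1.6 (2.63%, against 1.02% of autosomal genes), 7 in female Nons (18.4% against 6.75%), 10 in male Smarcc1.6 (26.3% against 6.47%) and 19 in male Nons (50% against 13%). The shares of protein-coding genes were 1.89%, 11.6%, 11.7% and 23.0% in the same lists. These are not like for like, since 31 of the 38 are protein-coding. Non-coding members with such a peak were H19, Meg3 and Mirg in female Nons and Nespas, Meg3 and Mirg in male Smarcc1.6. In male Nons they were Nespas, H19, Kcnq1ot1, Meg3, Mirg and Airn. An excess at start sites is thus not shown for the protein-coding members alone.

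Several promoters that act as control regions had peaks in the male lists. Of 12 members whose promoter or first intron is known as a maternally methylated control region, grouped after their peaks had been seen, none had a start-site peak in female Smarcc1.6 or female Nons, 3 had one in male Smarcc1.6 (Nespas, Peg3 and Zrsr1) and 6 in male Nons (the same 3 with Airn, Kcnq1ot1 and Nnat). Mest had a male Nons peak at an internal start site, and the other 5 were Grb10, Impact, Peg10, Plagl1 and Snrpn, with no start-site peak. Among the remaining 26 members, 1 (Igf2) had a start-site peak in female Smarcc1.6, 7 in female Nons (Dlk1, H19, Igf2r, Kcnq1, Meg3, Mirg and Phlda2), 7 in male Smarcc1.6 and 12 in male Nons. Usp29 was counted among these 26 in both male lists, although it shares a control-region promoter and its peaks with Peg3. Those peaks thus enter both sets. Female Nons therefore had start-site peaks over imprinted genes, but at other members. Because the 12 were grouped with their peaks known, their counts are a description and cannot show whether the sexes differ. Female Nons was also the shallower of the 2 Nons libraries.

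**Figure D2:**
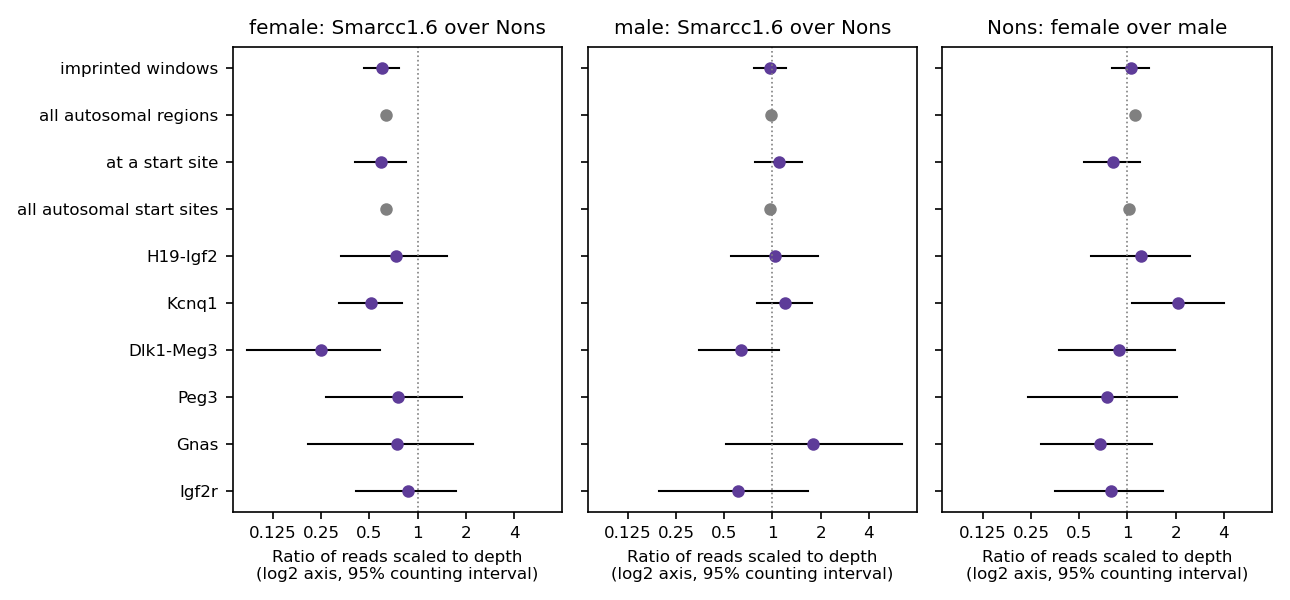
Ratio of reads scaled to depth for female Smarcc1.6 over Nons, male Smarcc1.6 over Nons and female over male Nons, on a log2 axis with 95% exact conditional intervals, in regions called in libraries not compared (purple, imprinted; grey, all autosomal). Over the imprinted windows the points lie at 0.598, 0.968 and 1.05, each beside the autosomal value of 0.639, 0.985 and 1.11, and the lowest domain value is that of Dlk1-Meg3 in females at 0.248.

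Over all imprinted windows, Smarca4 reads after the Smarcc1.6 hairpin lay near the autosomal value in both sexes. In the 103 regions called in a male list, female Smarcc1.6 had 84 reads and female Nons 273, which scaled to 1403 and 2348 and gave a ratio of 0.598 (0.462 to 0.766). The ratio over all 52283 autosomal regions chosen the same way was 0.639 (0.632 to 0.645), which lies inside the interval of the imprinted windows. Female Smarcc1.6 had no read in 54 of the 103 regions, and female Nons had none in 11. In the 42 regions called in a female list, male Smarcc1.6 had 120 reads and male Nons 190, a ratio of 0.968 (0.763 to 1.22) against 0.985 (0.976 to 0.995) over 23446 autosomal regions. Between the Nons libraries the ratio of female over male was 1.05 (0.802 to 1.36) in 35 regions called in a knockdown list, against 1.11 (1.10 to 1.12) over 19264. Of these 35 regions, 31 came from the male Smarcc1.6 list.

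The female ratio was 0.594 (0.408 to 0.849) in regions at start sites and 0.601 (0.416 to 0.851) in regions away from them. Among domains, Dlk1-Meg3 had the lowest female ratio with reads in both libraries, at 6 female Smarcc1.6 reads and 47 female Nons reads over 15 regions, which gave 0.248 (0.0866 to 0.581). Kcnq1 followed at 26 and 98 reads and 0.515 (0.321 to 0.801). The interval of Dlk1-Meg3 lay below the autosomal value of 0.639, whereas that of Kcnq1 held it, and Dlk1-Meg3 is 1 of 16 domains that were looked at. In males the ratios were 0.633 (0.350 to 1.10) for Dlk1-Meg3 and 1.19 (0.796 to 1.76) for Kcnq1, and both intervals held 1. Between Nons libraries, female over male reads in Kcnq1 were 22 and 20 over 7 regions, a ratio of 2.06 (1.07 to 3.99). That interval held the autosomal value of 1.11, and Kcnq1 was 1 of several domains looked at.

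No region was called by a test across all regions. An edgeR quasi-likelihood fit of sex plus hairpin to the recovered reads of 71887 regions called 0 at an adjusted p under 0.05 for Smarcc1.6 over Nons (0% of all regions) and 0 for female over male (0%), and none of the 136 imprinted regions was called. At an unadjusted p under 0.05 there were 0 imprinted regions of 296 (0.412% of all) for the hairpin and 1 of 320 (0.445%) for sex. That region was the Nespas promoter, with a log2 change of -3.35 for female over male and an adjusted p of 0.999 by edgeR. Regions were chosen on the reads that this fit tests, and the fit has 1 residual degree of freedom.

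Most imprinted peaks were listed for 1 library, as peaks in general were. Of the 136 regions, 120 came from 1 list and 16 from 2, and none from 3 or 4. The share of peaks that overlapped a peak of another list was 1 of 4 in female Smarcc1.6 (18.8% of its autosomal peaks), 8 of 38 in female Nons (19.3%), 9 of 31 in male Smarcc1.6 (20.2%) and 14 of 79 in male Nons (14.1%). A shared region is given below by the coordinates and reads of 1 of its overlapping peaks. The 16 shared regions were 7 of both male lists, 6 of both Nons lists, 2 of female Nons with male Smarcc1.6, and 1 of female Smarcc1.6 with male Nons. No region was shared by the female lists.

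**Figure D3:**
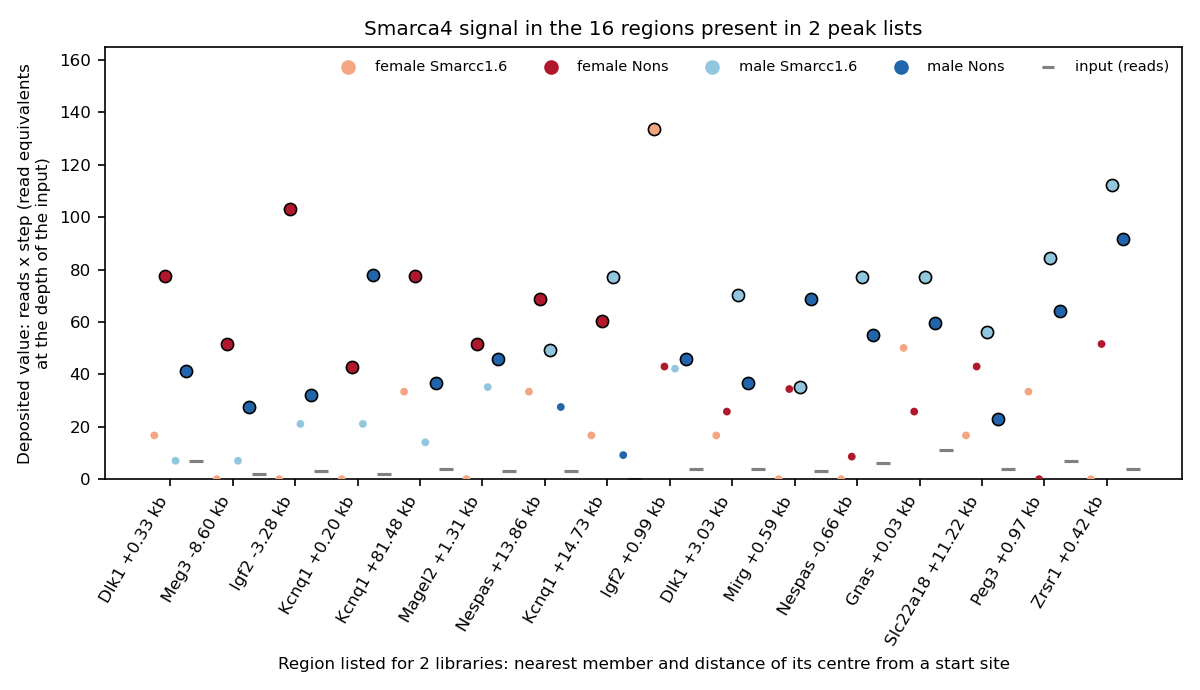
Deposited value, in read equivalents at the depth of the input, in the 16 regions present in 2 peak lists, by library; larger outlined points mark the lists that hold the region, and bars mark input reads. Regions are named by the nearest member and the distance of their centre from a start site. The 7 regions of both male lists are the rightmost, from the downstream Dlk1 region to Zrsr1, and the Igf2 region stands out through a scaled value of 134 in female Smarcc1.6.

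The number of peaks differed widely between domains. Kcnq1 held 53 peaks in 428 kb of windows, Dlk1-Meg3 26 in 211 kb, Igf2r 19 in 371 kb, H19-Igf2 14 in 58.7 kb, Gnas 9 in 85.5 kb and Peg3 7 in 316 kb. The density over the 4 lists was 23.9 peaks per 100 kb in H19-Igf2, 12.4 in Kcnq1 and 12.3 in Dlk1-Meg3, against 5.85 in all imprinted windows, 4.34 in the windows of all autosomal genes and 3.18 on the autosomes. The Snrpn domain was the sparsest at 0.57 per 100 kb. Male Nons had a peak in each of the 16 domains, male Smarcc1.6 in 11, female Nons in 9 and female Smarcc1.6 in 3 (H19-Igf2, Kcnq1 and Igf2r). Of the 152 peaks 64 lay in introns, 33 over coding exons, 22 over non-coding exons, 20 between genes and 13 over a UTR without coding sequence.

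**Figure D4:**
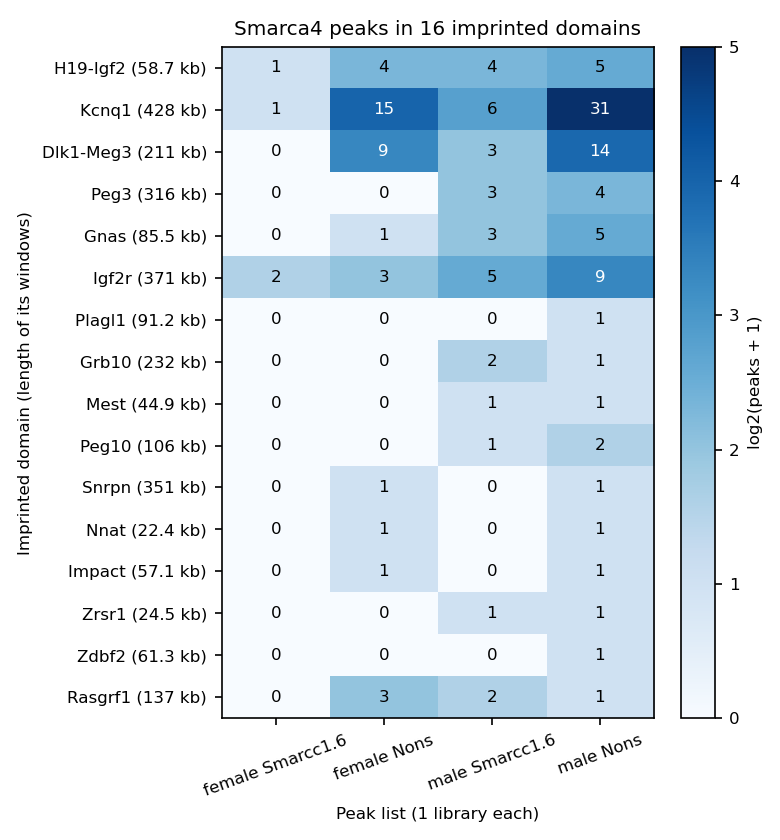
Number of Smarca4 peaks in each imprinted domain (rows, with the length of the windows) for the 4 peak lists (columns); shading is log2 of peaks plus 1. Kcnq1 and Dlk1-Meg3 hold most peaks, and Peg3, Zrsr1 and Mest have peaks in the male lists and none in the female lists.

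H19-Igf2 comprises H19, a long non-coding RNA expressed from the maternal copy, and Igf2, a fetal growth factor expressed from the paternal copy. H19 (chr7:142575529-142578143) had 3 female Nons peaks and 1 in each male list. Its 2 female Nons start-site peaks, chr7:142577401-142577700 and chr7:142577701-142578000, held 6 female Nons reads each. Female Smarcc1.6 had 0 and 3 reads in them, male Smarcc1.6 5 and 4, and male Nons 5 and 3. The male Nons peak, chr7:142576951-142577250, lay next to these 2 stretches with 8 male Nons reads and 3 female Nons reads, so that both Nons lists had a start-site peak at H19 but on different bases. Igf2 (chr7:142650766-142666816) was among the 4 members with a peak in all 4 lists.

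The Igf2 gene held the single region that female Smarcc1.6 shared with another list. This region, chr7:142654801-142655250, lies in an intron of Igf2 within 1 kb of an annotated start site and of Mir483. It held 8 reads in female Smarcc1.6, 5 in female Nons, 6 in male Smarcc1.6, 10 in male Nons and 4 in the input. On the scaled values of 134 in female Smarcc1.6 and 43.0 in female Nons it was high in the knockdown, in the list that called it. Upstream of Igf2, over an exon of its antisense RNA Igf2os, chr7:142669801-142670400 was shared by the Nons lists. It had 0 reads in female Smarcc1.6, 12 in female Nons, 3 in male Smarcc1.6, 7 in male Nons and 3 in the input, the most of any peak in the domain. The 3 male Smarcc1.6 peaks near Igf2 held 8 reads each, and overlapped no peak of another list.

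Kcnq1 is the widest cluster, in which the long non-coding RNA Kcnq1ot1 starts inside the potassium channel gene Kcnq1 and silences maternally expressed neighbours on the paternal copy. Kcnq1 (chr7:143106362-143427042) had 1 peak in female Smarcc1.6, 13 in female Nons, 3 in male Smarcc1.6 and 21 in male Nons. The region at its start, chr7:143108251-143108850 over a coding exon, was shared by the Nons lists and had 0 reads in female Smarcc1.6, 5 in female Nons, 3 in male Smarcc1.6, 17 in male Nons and 2 in the input. The overlapping female Nons peak, chr7:143107951-143108400, held 10 female Nons reads and 6 male Nons reads. The Nons lists thus chose the Kcnq1 start on stretches shifted against each other. An intronic region, chr7:143123701-143124150, was identical in the female Nons and male Smarcc1.6 lists, with 1 read in female Smarcc1.6, 7 in female Nons, 11 in male Smarcc1.6, 2 in male Nons and none in the input. A further intronic region of both Nons lists, chr7:143190451-143190900, had 2, 9, 2 and 8 reads in the order female Smarcc1.6, female Nons, male Smarcc1.6 and male Nons.

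Kcnq1ot1 (chr7:143203458-143296549) had peaks in all 4 lists, none of which was shared. The control region at its start was listed for male Nons alone. There chr7:143296051-143296350 had 0 reads in female Smarcc1.6, 3 in female Nons, 1 in male Smarcc1.6, 7 in male Nons and 2 in the input. The neighbouring male Nons peak, chr7:143295001-143295450, had 0, 1, 7 and 11 reads, with 2 in the input, so both male libraries were above the female ones. Farther inside the transcript, the female Nons peak chr7:143253151-143253750 held 13 female Nons reads, the most of any female Nons peak in the windows, against 1 in female Smarcc1.6, 2 in male Smarcc1.6 and 8 in male Nons, with 9 in the input. The female Smarcc1.6 peak chr7:143288551-143289000 held 7 female Smarcc1.6 reads, 3 in female Nons, 0 in male Smarcc1.6 and 5 in male Nons beside 12 in the input.

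The maternally expressed neighbours differed from each other. Phlda2, a restrainer of placental growth, had its start-site peak in female Nons, chr7:143502451-143503050, with 0 reads in female Smarcc1.6, 11 in female Nons, 7 in male Smarcc1.6, 2 in male Nons and 8 in the input. Cdkn1c, a cyclin-dependent kinase inhibitor, had 1 peak, in male Nons over its coding exon (chr7:143458801-143459400), with 3, 1, 4 and 13 reads in the same order and 10 in the input. Ascl2, a transcription factor of the trophoblast, had 5 peaks, all in male Nons, with 5 to 13 reads. The Phlda2 and Cdkn1c peaks were each highest in the library they were called in. Slc22a18, which encodes a transporter, had 2 peaks in female Nons, 3 in male Smarcc1.6 and 4 in male Nons, and its region chr7:143486101-143486550 was shared by the male lists with 8 male Smarcc1.6 and 5 male Nons reads.

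**Figure D5:**
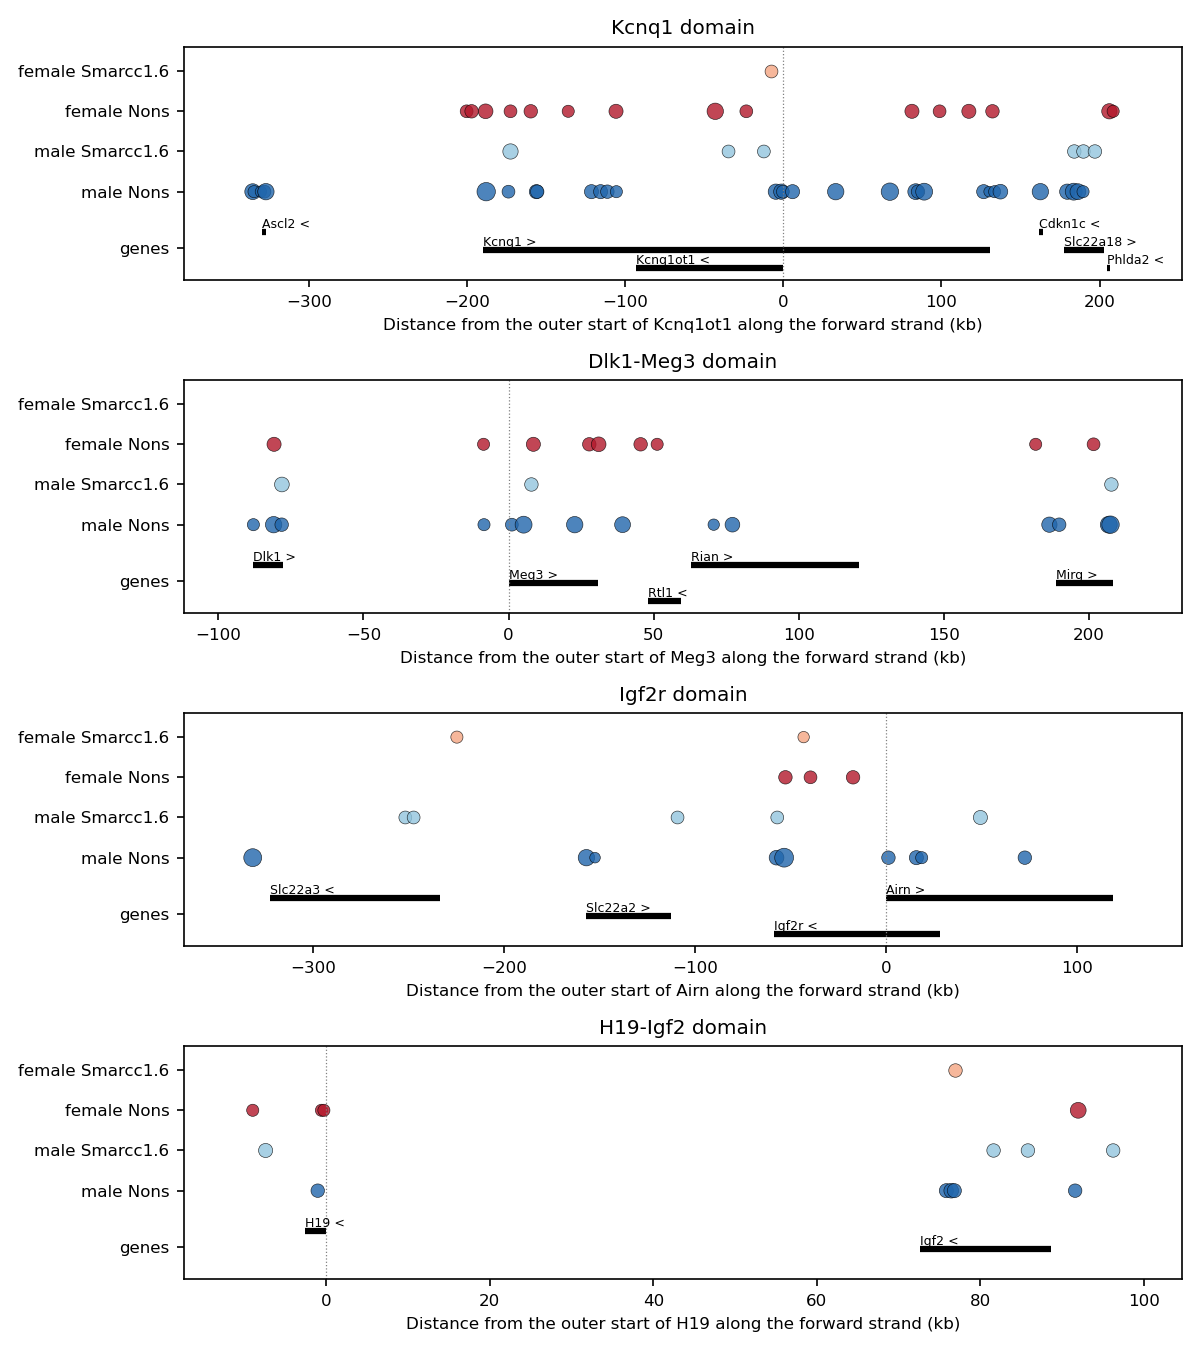
Positions of peaks in 4 domains, in kb from the outer start of Kcnq1ot1, Meg3, Airn or H19 along the forward strand; rows are peak lists, point area grows with the reads of the library that the list belongs to, and black bars are genes with their direction. In the Kcnq1 domain the male Nons peaks number 31 and the female Smarcc1.6 peaks 1, and no female Smarcc1.6 peak lies in the Dlk1-Meg3 domain.

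Dlk1-Meg3 holds Dlk1, which encodes a Notch-like transmembrane protein, the retrotransposon-derived gene Rtl1, and the maternally expressed non-coding RNAs Meg3, Rian and Mirg, the last of which hosts many miRNAs. No female Smarcc1.6 peak lay in the domain, against 9 in female Nons, 3 in male Smarcc1.6 and 14 in male Nons. At Dlk1 (chr12:109452823-109463336) the Nons lists shared chr12:109459951-109460400 over coding sequence, with 1 read in female Smarcc1.6, 9 in female Nons, 1 in male Smarcc1.6, 9 in male Nons and 7 in the input. As both Nons lists chose this region, Nons values above the knockdown values follow from that choice. The overlapping male Nons peak, chr12:109459801-109460250, held 2, 9, 3 and 13 reads in the same order and 8 in the input. Near the 3′ end of Dlk1, chr12:109462651-109463100 was shared by the male lists, with 1, 3, 10 and 8 reads in the same order of libraries and 4 in the input.

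Upstream of Meg3 (chr12:109541001-109571726), at 8.6 kb before its annotated start, chr12:109532251-109532550 was shared by the Nons lists. It held 0 reads in female Smarcc1.6, 6 in female Nons, 1 in male Smarcc1.6, 6 in male Nons and 2 in the input. At start sites of Meg3 transcripts, female Nons had a peak of 9 reads, male Smarcc1.6 one of 8, and male Nons peaks of 7 and 14, on separate stretches. Mirg (chr12:109729764-109749460) held the domain's highest peak in its own library, chr12:109748251-109748850, with 0 reads in female Smarcc1.6, 4 in female Nons, 5 in male Smarcc1.6, 15 in male Nons and 3 in the input. Rtl1 had 2 female Nons peaks of 6 and 8 reads and a male Nons peak of 12, and Rian, a host of small nucleolar RNAs, had 2 peaks, in male Nons with 5 and 10 reads. Across these genes female Smarcc1.6 had between 0 and 3 reads in every peak. None of these peaks was called in that library, the shallowest, whose autosomal peaks held at least 5 reads. Low counts there thus follow in part from the choice of peaks.

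In the Peg3 domain the paternally expressed zinc finger gene Peg3 and the deubiquitinase gene Usp29 are transcribed apart from a shared promoter that is a control region. Neither female list had a peak in the domain, whereas male Smarcc1.6 had 3 and male Nons 4. The shared promoter region, chr7:6729151-6729750, held 2 reads in female Smarcc1.6, 0 in female Nons, 12 in male Smarcc1.6, 14 in male Nons and 7 in the input. The overlapping male Smarcc1.6 peak, chr7:6729301-6729900, held 3, 1, 15 and 12 reads in the same order. Scaled values in that peak were 50.1 in female Smarcc1.6 and 8.6 in female Nons. As both male lists called the promoter, the high male values follow from that choice. The peak with the most reads of all imprinted windows lay over the UTR of Usp29, chr7:6952201-6953250, with 1 read in female Smarcc1.6, 8 in female Nons, 10 in male Smarcc1.6 and 25 in male Nons, beside 24 in the input, which was also the highest input value of the imprinted peaks. Zim1, a maternally expressed zinc finger gene of the domain, had no peak.

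The Gnas locus encodes the stimulatory G protein alpha subunit and carries several promoters, 1 of them giving the paternally expressed antisense RNA Nespas. The Nespas promoter, chr2:174295801-174296400, was shared by the male lists and had 0 reads in female Smarcc1.6, 1 in female Nons, 11 in male Smarcc1.6, 12 in male Nons and 6 in the input. A Gnas start site, chr2:174327301-174327900, was likewise shared by the male lists, with 3, 3, 11 and 13 reads in the same order and 11 in the input. Scaled to depth this Gnas start site had 50.1 in female Smarcc1.6, 25.8 in female Nons, 77.3 in male Smarcc1.6 and 59.6 in male Nons. The female Smarcc1.6 value is 3 reads at a step of 16.7, too few to place it beside the male values, and both male lists chose the region. An intergenic region downstream of Nespas, chr2:174271351-174271800, was shared by female Nons and male Smarcc1.6, with 2 reads in female Smarcc1.6, 8 in female Nons, 7 in male Smarcc1.6 and 6 in male Nons. At another Gnas start site, chr2:174298201-174298650, male Nons held 13 reads and the other libraries 0 or 1, with 6 in the input.

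Igf2r encodes a receptor that clears Igf2, and is silenced on the paternal copy by Airn, a long non-coding RNA whose promoter lies in an intron of Igf2r. None of the 19 regions in this domain was shared between lists. Igf2r (chr17:12682406-12769664) had 1 peak in female Smarcc1.6, 3 in female Nons, 1 in male Smarcc1.6 and 5 in male Nons. Its highest peak, the intronic chr17:12687601-12688200, held 4 reads in female Smarcc1.6, 2 in female Nons, 2 in male Smarcc1.6, 18 in male Nons and 8 in the input. The female Smarcc1.6 peak of Igf2r, chr17:12697951-12698250, held 5 female Smarcc1.6 reads, 2 in female Nons, 0 in male Smarcc1.6, 8 in male Nons and 5 in the input. The Airn peak nearest its promoter (chr17:12742351-12742650) had 0, 4, 5 and 8 reads in that order, with 6 in the input, and was listed for male Nons.

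The organic cation transporter genes Slc22a3 and Slc22a2 lie in the same domain and are imprinted mainly in the placenta. Slc22a3 held the female Smarcc1.6 peak with the cleanest input, chr17:12516451-12516750, upstream of the gene, with 6 reads in female Smarcc1.6, 2 in female Nons, 0 in male Smarcc1.6, 1 in male Nons and 0 in the input. Its window also had 2 male Smarcc1.6 peaks of 7 reads and 1 male Nons peak of 16. At Slc22a2 the start-site peak of male Nons, chr17:12584101-12584700, held 2 reads in female Smarcc1.6, 3 in female Nons, 2 in male Smarcc1.6, 13 in male Nons and 3 in the input, and male Smarcc1.6 had 1 peak of 7 reads downstream.

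Single-gene domains were led by Zrsr1, a paternally expressed gene related to a splicing factor that lies inside Commd1. Its start region, chr11:22972051-22972800, was shared by the male lists with 0 reads in female Smarcc1.6, 6 in female Nons, 16 in male Smarcc1.6, 20 in male Nons and 4 in the input. The overlapping male Smarcc1.6 peak, chr11:22972501-22972950, held 1, 5, 12 and 13 reads in the same order. Scaled to depth the first region had 112 in male Smarcc1.6 and 91.7 in male Nons, and 0 in female Smarcc1.6 and 51.6 in female Nons. The region was chosen by both male lists, so that high values there follow from the choice.

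Nnat, a neuronal proteolipid gene inside an intron of Blcap, had its start-site peak (chr2:157560151-157560750) in male Nons, with 2 reads in female Smarcc1.6, 0 in female Nons, 7 in male Smarcc1.6, 14 in male Nons and 13 in the input. Its female Nons peak lay upstream of the gene and held 9 female Nons reads. Rasgrf1, a guanine nucleotide exchange factor of Ras, had 3 female Nons peaks of 8 or 9 reads inside or downstream of the gene, 2 male Smarcc1.6 peaks at its start and 1 intronic male Nons peak. The start-site peak chr9:89909101-89909550 held 3 reads in female Smarcc1.6, 3 in female Nons, 9 in male Smarcc1.6, 6 in male Nons and 7 in the input. A female Nons peak over a coding exon, chr9:89994751-89995200, had 0, 9, 2 and 6 reads in that order and 2 in the input. Nnat and Rasgrf1 thus had female and male peaks at separate places. Impact, a regulator of translation, likewise had a female Nons peak of 7 reads upstream and a male Nons peak of 13 reads inside the gene.

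Magel2, a MAGE family gene of the Snrpn domain, was the one member of its domain with a peak. Its region chr7:62378101-62378550, over coding sequence, was shared by the Nons lists and had 0 reads in female Smarcc1.6, 6 in female Nons, 5 in male Smarcc1.6, 10 in male Nons and 3 in the input. No peak lay in the windows of Snrpn, the ubiquitin ligase gene Ube3a, Ndn or Mkrn3, nor in that of Zim1 above, and with peaks called at few reads this does not show that Smarca4 was absent.

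Several genes had peaks in the male lists and none in the female lists. The retrotransposon-derived gene Peg10 had 1 male Smarcc1.6 peak of 8 reads and 2 male Nons peaks of 8 and 10 over its coding sequence and UTR, and the window of Sgce, which encodes a sarcoglycan, held 2 of these 3. Mest, which encodes a protein of the hydrolase fold, had a male Nons peak at an internal start site, chr6:30742351-30742800, with 1 read in female Smarcc1.6, 3 in female Nons, 1 in male Smarcc1.6, 11 in male Nons and 2 in the input, and a male Smarcc1.6 peak of 8 reads upstream. Ddc, the dopa decarboxylase gene beside Grb10, had a male Smarcc1.6 peak of 7 reads at a start site and a male Nons peak, chr11:11888401-11888850, with 2, 4, 1 and 11 reads in the order above and none in the input. Grb10, an adaptor of receptor tyrosine kinases, had 1 peak, in male Smarcc1.6 with 7 reads over a coding exon. Plagl1, a zinc finger transcription factor gene, and Zdbf2 had 1 male Nons peak each, of 7 and 8 reads with none in the input. These were among the 6 members with a peak in a single list, beside 15 with peaks in 2 lists, 8 in 3 and 4 in all 4 (Igf2, Kcnq1, Kcnq1ot1 and Igf2r). Kcnq1 and Kcnq1ot1 overlap and reached all 4 through the same female Smarcc1.6 peak. Windows of Kcnq1, Kcnq1ot1 and Igf2r were long, at 341, 113 and 107 kb. Counts by number of lists, or in male lists only, were not made over all autosomal genes, so they have no background here.

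Imprinted genes outside the 38 and genes for proteins that keep imprints were counted in the same way. Of 39 other imprinted genes, 4 had a peak in female Smarcc1.6 (10.3%), 18 in female Nons (46.2%), 16 in male Smarcc1.6 (41.0%) and 30 in male Nons (76.9%). The share in male Smarcc1.6 was lower than the 63.2% of the 38 genes and near the 41.5% of all protein-coding genes. The other 3 were within 5 percentage points of those of the 38 genes, and that in male Nons lay above the 58.2% of protein-coding genes. Peaks per Mb of their windows were 1.21 (0.33 to 3.1), 15.1 (11.2 to 20), 9.69 (6.63 to 13.7) and 23.3 (18.4 to 29.1) in the same lists. Each interval held the value of all gene windows, at 1.47, 11.5, 9.21 and 21.2. Of 8 genes for keepers of imprints, 2 had a peak in female Smarcc1.6 (Dnmt1, the maintenance methyltransferase, and Uhrf1, which recruits it), 3 in female Nons, 4 in male Smarcc1.6 and 6 in male Nons, Zfp57 and Zfp445 having none in any list. Against the shares of all protein-coding genes, which were 11.1%, 44.0%, 41.5% and 58.2%, 8 genes are too few to set these counts apart.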

How the data were processed

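Smarca4 ChIP-seq peaks were analysed from 4 deposited lists, each with scaled signal of the 4 ChIP libraries and the read count of the input library in every peak. Per the submitters' processing notes, reads were handled with bcl2fastq, Bowtie2 and MACS2 on mm10, with no versions in those notes. The methods name bowtie2 and describe Seqmonk for the removal of duplicates and peak calling against the input. The reporting form names tophat for the ChIP reads and gives tool versions, which are not repeated here, so the aligner is uncertain. The authors scaled ChIP signal to the depth of the input. Whole reads were recovered by dividing each value by its library's step, and 100% of the values came out whole within 0.01 of a read. The deposited input values are counts. Since the mapped reads that these steps imply were 5.99% to 21.8% of those of the input, precision was set by the few reads per peak.

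Genes were taken from GENCODE vM21 and bases from the RefSeq GRCm38 genome (mm10). Windows were the gene body and 10 kb either side, and peaks that overlapped by 1 base formed 1 region. Read ratios were summed over regions with under 50 input reads that had been called in libraries not compared, with an exact conditional interval at 95%. A quasi-likelihood fit of sex plus hairpin was made with edgeR 4.0.16 in R 4.3.3, with Benjamini-Hochberg adjustment over all regions. It was run on simulated counts deeper than these libraries, which does not measure its power at the few reads held here. Other steps used Python 3.11.15 with scipy 1.17.1 and samtools 1.23.1.

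The members and gene lists were chosen with earlier results of these data known. All 38 members were accounted for, and those with peaks in 2 or more lists and the peak with the most reads in each domain were described in full. The 12 control-region promoters and the leave-1-domain-out alternatives were chosen after seeing the data. Alternatives were other windows, shorter peak lists, protein-coding genes, other region rules, TMM scaling and a minimum of 10 reads.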

Additional observations from a re-analysis of the deposited data

Results flagged for a closer look

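Smarcc1.6 over Nons read ratios lay on opposite sides of 1 in the sexes for 5 of the 8 domains that gave a ratio in both, and this difference was not tested, since each ratio compares 1 library with 1 library and the regions differ between the sexes. In Kcnq1 the ratio was 0.515 in females and 1.19 in males, in H19-Igf2 0.737 and 1.04, and in Gnas 0.747 and 1.79. In Snrpn it was 0 in females, from 0 Smarcc1.6 and 6 Nons reads in the Magel2 region, and 1.23 in males. In Rasgrf1 it was 1.39 in females and 0.996 in males. The autosomes as a whole had 0.639 in females and 0.985 in males. Among the 5 domains the interval of the female Kcnq1 value, 0.321 to 0.801, was the one that did not hold 1, and it held the autosomal 0.639.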

How the results depend on the processing

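Peak counts depended on the list length and the window. With the gene body alone, female Nons had 24 peaks in the windows. With the 50% of each list that had the highest fold over input, female Smarcc1.6 had 2 peaks, female Nons 21 and male Nons 33, and members with a peak numbered 2 in female Smarcc1.6 and 18 in male Nons. With 2781 peaks from each list, peaks numbered 3 in female Nons, 6 in male Smarcc1.6 and 5 in male Nons, and members with a peak 2, 8 and 4. Within 1 kb of a start site, members with a peak were 1 in female Smarcc1.6, 7 in female Nons, 10 in male Smarcc1.6 and 19 in male Nons. Altogether 7 of 12 alternative peak counts and 9 of 20 gene counts moved by over 1.5 times.

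The 48 read ratios without 1 domain and 12 under other alternatives stayed inside the interval of the reported value. Without 1 domain, the female Smarcc1.6 over Nons ratio ranged between 0.565 and 0.67, the male ratio between 0.862 (without Kcnq1) and 1.07 (without Dlk1-Meg3), and female over male Nons between 0.906 (without Kcnq1) and 1.12 (without Gnas), so the last 2 have no stable direction. Under the other alternatives they ranged between 0.598 and 0.638, 0.936 and 0.968, and 0.931 and 1.14. TMM scaling and a minimum of 10 reads in edgeR also called 0 regions for hairpin and sex. No paired analysis was possible because the labels give no replicate numbers and each group is 1 library. Depth limits every comparison, as 44 of the 79 male Nons peaks in the windows had 0 female Smarcc1.6 reads.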
